A study of Mus musculus with 12 samples.

Results

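The expanded CDR3s of the splenic *IGH* repertoire of *MRL-lpr* mice were the CDR3s that held at least 0.1% of the reads of their library. CDR3 here means the amino acids between the conserved cysteine at the end of the VH region and the conserved tryptophan at the start of the J region, without these anchor residues. Members were chosen by their reads, so their number and read shares are given as a description and were not tested. In 11 libraries there were 769 entries of expanded CDR3s among 286401 entries of CDR3s, counted once per library, and they came down to 574 distinct CDR3s. Splenic B cells came from female mice of 14 weeks of age treated with control SMO (6 mice) or with LFPRLR SMO (6 mice), an oligomer that blocks splicing to the long form of the prolactin receptor. All mice of both groups carried the *Fas lpr* mutation, on which this lupus-prone strain accumulates lymphocytes. Transcripts were amplified from the J558 VH family to the Cμ constant region, so other VH families and switched isotypes lie outside the measurement. One library, LFPRLR SMO replicate 6, had 627 reads and fell under the minimum of 10000 reads, which left 6 control SMO and 5 LFPRLR SMO libraries.

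The CDR3 of the heavy chain is built from the end of a V segment, a D segment and the start of a J segment, with bases trimmed and added at the joins. It is the most variable loop of the antibody and often lies at the center of the antigen-binding site. B cells of one clone share their rearranged CDR3, so a clone that has divided or that makes more transcript holds more reads. Arginine and lysine give the loop positive charge, and arginine-rich CDR3s are known from antibodies to DNA in lupus-prone mice. Aspartate and glutamate give it negative charge, while tyrosine is the residue that D and J segments supply most often. In bulk RNA, more cells of a clone and more transcript per cell cannot be told apart.

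Depth and the relations between libraries set the frame for the results. Libraries held between 130635 and 227202 reads, and a CDR3 was located in 84.9% to 93.4% of them. A CDR3 with no read could still hold up to 3 counts, or 0.00142% to 0.0026% of a library, for counting error only. Libraries fell into sets by the sequence of the Cμ end, with 3 control SMO and 3 LFPRLR SMO libraries in set 1 and 3 and 2 in set 2. In 3 pairs of libraries, namely control SMO replicates 5 and 7, control SMO replicates 4 and 8, and LFPRLR SMO replicates 4 and 5, between 38 and 45 expanded CDR3s were the same. The labels give these libraries as different mice. They were kept as separate libraries, and each result that changes when a pair is averaged is given with both values.

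The commonest expanded CDR3s of 9 libraries are shown by their nucleotide sequences, since these hold the most reads of their libraries. Capitals mark the codons of a run of residues typical of a D segment, YDGS in the first and YGNY in the last sequence.
Control SMO replicate 3: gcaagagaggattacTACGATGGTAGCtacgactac
Control SMO replicate 5: gctatatggttactacttgtc
Control SMO replicate 7: aagaattataggtacgacgttgcttac
Control SMO replicate 9: gcaagatatggtaaccatgctatggactac
LFPRLR SMO replicate 3: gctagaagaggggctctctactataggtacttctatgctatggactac
LFPRLR SMO replicates 4 and 5: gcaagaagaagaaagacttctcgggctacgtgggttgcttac
LFPRLR SMO replicate 7: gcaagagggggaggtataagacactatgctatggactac
LFPRLR SMO replicate 8: gcaagaggccttTATGGTAACTACgactac

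Among the leading CDR3s the read share ranged from 1.61% in control SMO replicate 3 to 9.35% in LFPRLR SMO replicate 5. The sequence that led control SMO replicate 5 encodes only 7 residues, with a net charge of 0, and held 8.25% of the reads there, 4.72% in replicate 7 and 0.596% in replicate 4. The leader of control SMO replicate 7, 9 residues joined to Ighj3, held 6.42% of the reads there and 8.21% in replicate 5. The control leaders shown had net charges from -3 to 1, where net charge is the number of arginines and lysines less the number of aspartates and glutamates.

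The leaders of the LFPRLR SMO libraries had net charges from 0 to 5. The sequence that led replicates 4 and 5 had the charge of 5, with 14 residues joined to Ighj3, and held 4.66% and 9.35% of the reads. It was carried by a pair of nucleotide versions that encode the same residues and differ by 3 neighbouring bases, shown in capitals. The first held 85.0% and the second 14.7% of its reads in the 3 libraries where it was expanded, by the nucleotide tables, whose total for LFPRLR SMO replicate 5 (167962 reads) is below that of the translations (171560 reads).
First version: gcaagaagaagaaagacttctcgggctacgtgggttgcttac
Second version: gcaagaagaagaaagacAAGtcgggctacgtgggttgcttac
The leader of LFPRLR SMO replicate 3 encodes 16 residues, was the longest of the leaders and had a charge of 2, with 3.17% of the reads. The leader of LFPRLR SMO replicate 8 has YGNY, one of the motifs of the large DSP2 family of D segments, and held 3.42% of the reads.

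Control SMO libraries had 30, 63, 53, 44, 67 and 79 expanded CDR3s in replicates 3, 4, 5, 7, 8 and 9. LFPRLR SMO libraries had 65, 61, 76, 122 and 109 in replicates 3, 4, 5, 7 and 8. The ranges overlapped, and the medians were 58 and 76. Expanded CDR3s were 0.0723% to 0.49% of the CDR3s of a library and held 9.44% to 48.2% of the reads after control SMO and 26.4% to 43.8% after LFPRLR SMO. Of the 769 entries, 60 held at least 1% and 6 held at least 5% of their library's reads, and 4 of these 6 were in control SMO libraries. The threshold cut through a continuous range. The lowest expanded CDR3 of a library had 0.1% to 0.106% of the reads (116 to 220 reads), and the highest CDR3 below it had 0.0955% to 0.0999% (114 to 211 reads).

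**Figure D1:**
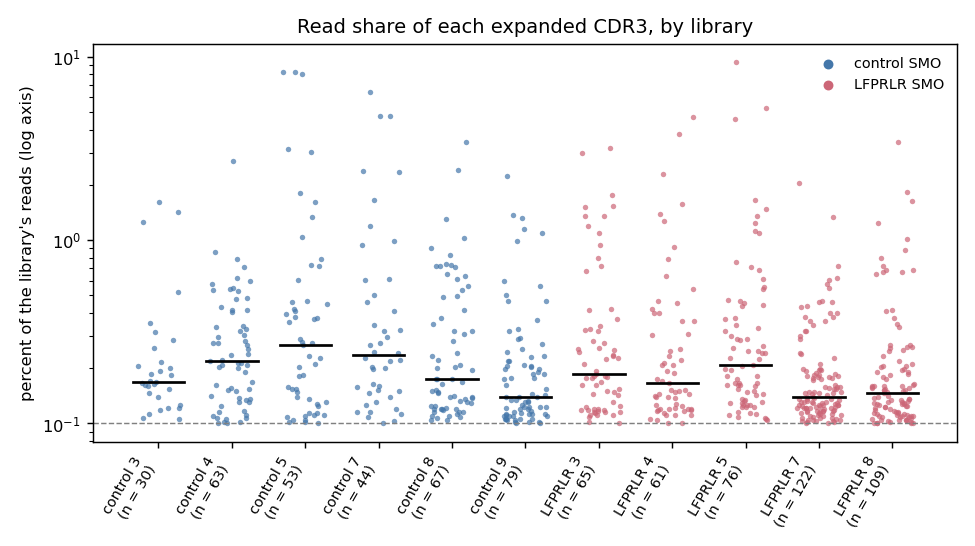
Percent of the library's reads held by each expanded CDR3 (log axis), 1 point per CDR3 and 1 column per library, with the median as a black line and the 0.1% threshold dashed. Medians lay between 0.139% and 0.268%, and single CDR3s reached 8.25% in control SMO replicate 5 and 9.35% in LFPRLR SMO replicate 5.

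Most expanded CDR3s came from a single nucleotide sequence. Of 769 entries, 586 had only 1 nucleotide version with at least 5 reads, and the commonest version held a median of 99.5% of a CDR3's reads. Several versions were commonest among short CDR3s. Of the 81 entries of 4 to 6 residues, 43.2% had several versions, against 25.8% of the 190 entries of 7 to 9 residues and 19.02% of the 305 of 10 to 12, but the 34 entries of at least 16 residues had 32.4%. Read share moved with the number of versions too, since 63.3% of the 60 entries of at least 1% had several versions, against 18% of the 450 entries below 0.2%, and a CDR3 with more reads shows its rare versions more easily. The VH bases ahead of the CDR3 were less uniform. In the median expanded CDR3, 9.94% of the reads differed from its commonest VH end by at least 5 bases. Between 3.08% and 22.4% of a library's expanded CDR3s were 1 residue away from another expanded CDR3 of the same length in that library.

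Expanded CDR3s were shorter than the other CDR3s of the same library in 11 of 11 libraries. In control SMO replicates 3, 4, 5, 7, 8 and 9 the mean length of the expanded CDR3s was 11.5, 10.9, 10.5, 10.2, 11.4 and 9.84 residues, and that of the others 11.9, 11.4, 11.4, 11.2, 11.6 and 11.5. For LFPRLR SMO (replicates 3, 4, 5, 7 and 8) the means were 10.6, 10.4, 10.5, 10.2 and 10.2 residues, against 11.2, 11.2, 11.4, 11.6 and 11.8. The mean difference was -0.89 residues, larger than its spread between libraries (SD 0.50), with a two-sided exact sign-flip test over 2048 sign patterns giving p = 0.000977, the smallest it can give, and a Benjamini-Hochberg adjusted p of 0.00488 over 20 measures. With each pair of libraries averaged the difference was -0.96 residues (exact test, adjusted p = 0.0391). The difference was not past the threshold where the most abundant CDR3s had more weight. Weighted by reads it was 0.00173 residues (exact test, adjusted p = 1), and among CDR3s of at least 0.5% of the reads it was -0.2 residues (adjusted p = 0.831). Mean length over entries was 10.2 residues from 0.1% to 0.2% of the reads, 10.8 from 0.2% to 0.5%, 11.4 from 0.5% to 1% and 10.9 at 1% or more, so it did not follow the read share in order.

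Classes of up to 9 residues had larger shares among the expanded CDR3s, and the longer classes had smaller shares. CDR3s of at most 6 residues made up 9.42% ± 4.62 (SD, n = 11) of the expanded CDR3s and 3.54% ± 0.554 of the others. The share was higher among the expanded CDR3s in 10 of 11 libraries (exact sign-flip test, adjusted p = 0.00977), and in control SMO replicate 3 no expanded CDR3 was that short. It missed the threshold with pairs averaged (exact test, adjusted p = 0.0781). CDR3s of 7 to 9 residues made up 25.2% ± 5.13 of the expanded and 18.4% ± 2.07 of the other CDR3s. Those of 10 to 12 residues made up 39.6% ± 5.66 and 43.6% ± 1.19, and those of 13 to 15 residues 21.3% ± 6.66 and 28.4% ± 2.14. The classes from 7 to 15 residues were not tested. For CDR3s of at least 16 residues the shares were 4.6% ± 3.21 and 6.11% ± 1.36 (exact test, adjusted p = 0.227).

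**Figure D2:**
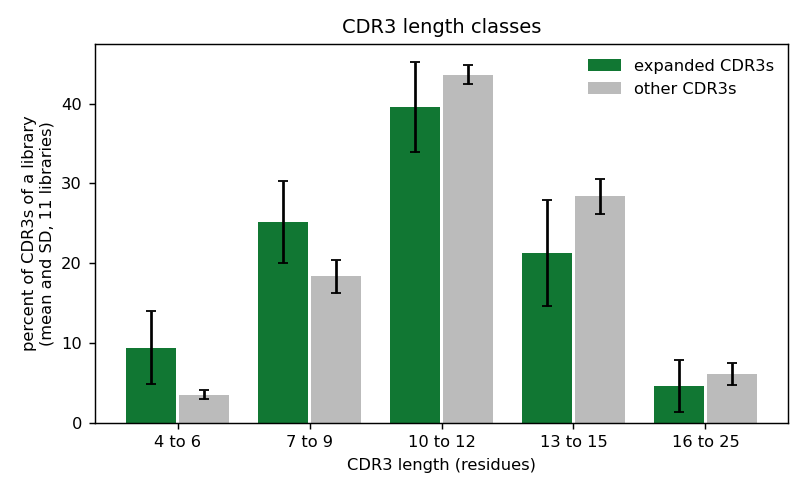
Percent of a library's CDR3s in each class of length, for expanded CDR3s (green) and other CDR3s (grey), as the mean and SD over 11 libraries. The classes of 4 to 6 and 7 to 9 residues held 9.42% and 25.2% of the expanded CDR3s, against 3.53% and 18.4% of the others.

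Of 20 measures of sequence, 8 differed between expanded and other CDR3s after adjustment, which is 40.0%, all by the exact sign-flip test over 11 libraries. Besides length and the share of at most 6 residues, these were Ighj4 use, the start of the CDR3, cysteine, N-glycosylation sites and a pair of D motifs. For N-glycosylation sites and the DFL16.1 motif no expanded entry had the feature, so the direction was the same in every library and these calls are given no weight. With pairs averaged, 4 measures stayed below 0.05, which were length, cysteine and these features without an entry.

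Ighj4, the most distal J segment from the D cluster, was used by 25.04% ± 6.79 of the expanded CDR3s and 31.3% ± 2.77 of the others (exact test, adjusted p = 0.0415), lower in 8 of 11 libraries. Without single libraries its adjusted p ran from 0.0195 to 0.083, and with pairs averaged it was 0.137. Ighj1 was used by 12.8% ± 5.5 and 8.99% ± 0.45 (exact test, adjusted p = 0.123), without a call. Ighj2 was used by 32.9% ± 5.87 and 31.2% ± 1.98, and Ighj3 by 29.2% ± 4.69 and 28.5% ± 1.29 (exact tests, adjusted p = 0.452 and 0.669). Use of J varied more among the few expanded CDR3s of a library than among its many others.

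A start with alanine and arginine, the residues that the end of most J558 VH segments encodes, was found in 62.4% ± 10.7 of the expanded CDR3s and in 73.4% ± 1.49 of the others (exact test, adjusted p = 0.00781), lower in 10 of 11 libraries. The lowest shares were 45.3%, 45.5% and 52.4% in control SMO replicates 5, 7 and 4, which are libraries of the sharing pairs. With pairs averaged the difference was -8.48 percentage points (exact test, adjusted p = 0.0625). With each expanded CDR3 counted only in the library of its highest share it was -1.69 points (exact test, adjusted p = 0.843). That count left 1 expanded CDR3 in control SMO replicate 4 and 5 in control SMO replicate 7.

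**Figure D3:**
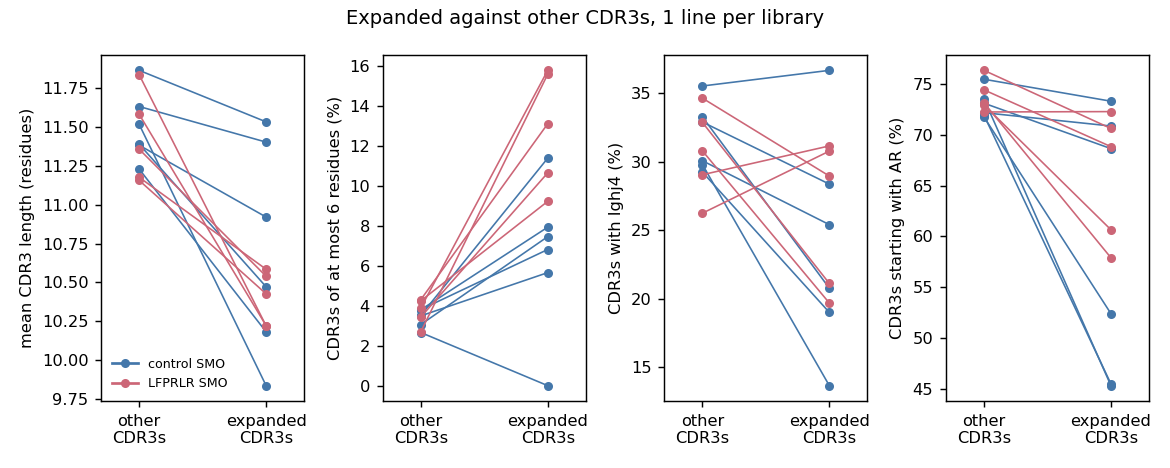
Mean CDR3 length, share of at most 6 residues, Ighj4 share and share starting with alanine and arginine for the other and the expanded CDR3s of each library, 1 line per library and colour by group. Length fell in 11 of 11 libraries, and the other panels had 1, 3 and 1 libraries that went the opposite way.

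Cysteine, which can form a second disulfide bond in the loop, was found in 6 of the 769 expanded entries, where the share of the other CDR3s would give 17.5. An N-glycosylation site, which can carry a sugar chain in the loop, was found in none, where the others' share would give 5.37. Both shares were lower in 11 of 11 libraries, for cysteine with an adjusted p of 0.00488 by the exact test. The expanded CDR3s of control SMO replicates 3, 4 and 7 and LFPRLR SMO replicates 3 and 4 held no cysteine. There the direction was fixed in advance, so the cysteine call rests in part on such libraries. The values for N-glycosylation sites are a description, because a library whose expanded CDR3s hold none differs in the same direction whatever its true share. The same holds for the run YGSS, which stood for DFL16.1, with 0 entries where 0.507 would be given.

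D motifs were short runs of residues read within the CDR3, and YDYD, YDGY, YGNY, YSNY and YGYD stood for DSP2. DSP2 motifs were found in 7.69% ± 2.14 of the expanded and 10.04% ± 0.591 of the other CDR3s (exact test, adjusted p = 0.014), lower in 10 of 11 libraries, and the adjusted p was 0.112 with pairs averaged. DST4 was found in 1.26% ± 1.93 and 1.23% ± 0.195, and DQ52, the shortest D segment, in 1.65% ± 1.44 and 1.002% ± 0.0997, neither past the threshold. No motif of the list, which left out the run YDGS, was found in 89.3% ± 2.46 and 87.6% ± 0.646 (exact test, adjusted p = 0.0933). YGSS was rare in these libraries as a whole. The motifs were not checked against the D segments of this strain, so a rare YGSS does not mean that DFL16.1 was rare. The run YDGS, counted after the rarity of YGSS was seen, was found in 50 expanded entries. The run YDGS was found in 7.45% ± 3.88 of the expanded and 8.91% ± 0.606 of the other CDR3s, with p = 0.245 by the exact sign-flip test. By group, its share of the expanded CDR3s was 6.33% to 16.7% after control SMO and 3.28% to 5.50% after LFPRLR SMO, which did not overlap. Among the other CDR3s the shares of 8.43% to 10.1% and 8.11% to 9.49% overlapped. A library had 2 to 6 expanded entries with YDGS, and this split by group was not tested.

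The net charge of the expanded CDR3s differed between the groups, with no overlap. In control SMO replicates 3, 4, 5, 7, 8 and 9 the mean net charge per expanded CDR3 was -0.37, -0.44, -0.51, -0.50, -0.10 and -0.34. For LFPRLR SMO (replicates 3, 4, 5, 7 and 8) the means were 0.03, 0.18, 0.29, 0.02 and 0.06. All 6 control SMO libraries lay below 0 and all 5 LFPRLR SMO libraries above it. The medians were -0.41 and 0.06, a difference of 0.46 charges against SDs of 0.15 and 0.12. The Mann–Whitney *U* test, two-sided and exact over 462 arrangements, gave p = 0.00433, the smallest it can give, and an adjusted p of 0.0433 over 20 measures. Of the 20 measures 2 passed, which is 10%. Without any single library the difference was 0.42 to 0.52, and the adjusted p, from exact tests of fewer arrangements, was 0.0529 to 0.0952.

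The other CDR3s of the same libraries had median net charges of -0.30 after control SMO and -0.28 after LFPRLR SMO (exact p = 0.126). The difference between expanded and other CDR3s was itself higher in LFPRLR SMO libraries (exact test, adjusted p = 0.0433), but with pairs averaged the adjusted p was 0.190 (0.38 charges, exact p = 0.0286). Within library set 1 the difference between groups in the expanded CDR3s was 0.48 charges and within set 2 it was 0.54, with exact p = 0.1 and 0.2, the smallest that sets of this size can give. With the 3 pairs of libraries averaged, 4 against 4, the difference was 0.40 and the groups did not overlap (exact p = 0.0286, the smallest possible, and adjusted p = 0.286). With each expanded CDR3 counted once, in the library of its highest share, it was 0.48 (exact p = 0.0519, adjusted p = 0.519). Counted so, the means of control SMO replicates 4 and 7 rest on 1 and 5 expanded CDR3s.

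Aspartate and arginine moved with the charge. An expanded CDR3 had a mean of 1.13 to 1.4 aspartates after control SMO and 0.974 to 1.09 after LFPRLR SMO, which did not overlap. It had 0.818 to 1.21 and 1.05 to 1.25 arginines, which did. Lysine (medians 0.117 and 0.131) and glutamate (0.154 and 0.156) differed less. Expanded CDR3s of charge 2 or more had median shares of 6.95% (control SMO) and 16.9% (LFPRLR SMO), and those of charge -2 or less 17.9% and 10.1%. Within each J segment the median charge was higher in LFPRLR SMO libraries, with 0.64 against 0.15 for Ighj3, -0.05 against -0.60 for Ighj4, -0.24 against -0.53 for Ighj2 and -0.14 against -0.56 for Ighj1. The ranges overlapped in each J segment, for Ighj1 with -1.33 to 0.545 after control SMO and -0.5 to 0 after LFPRLR SMO. Some of these means rest on few CDR3s, with 1 for Ighj1 in control SMO replicate 3. These counts per residue and per J segment were not tested.

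Weighted by reads, arginine made up 4.79% to 9.58% of the residues of expanded CDR3s after control SMO and 9.9% to 17.3% after LFPRLR SMO. Aspartate made up 9.77% to 13.1% and 7.01% to 9.68%. In the other CDR3s arginine made up 9.56% to 10.2% after control SMO and 9.7% to 10.5% after LFPRLR SMO. Aspartate of the other CDR3s made up 11.3% to 11.6% and 10.9% to 11.2%, which did not overlap either. Without weighting, medians of 27.7% and 28.5% of the other CDR3s had an arginine past residue 2 (exact Mann–Whitney *U* test, p = 0.0173, adjusted p = 0.346). Among the expanded CDR3s arginine was lowest in control SMO replicate 5 and highest in LFPRLR SMO replicate 5, the libraries with the most reads in expanded CDR3s. Weighted by reads the difference in median net charge was 0.87 (exact p = 0.00433, adjusted p = 0.0866).

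Tyrosine went the other way. In control SMO replicates 3, 4, 5, 7, 8 and 9 it made up 21.9%, 21.9%, 22.3%, 22.5%, 21.5% and 21.2% of the residues of an expanded CDR3. For LFPRLR SMO (replicates 3, 4, 5, 7 and 8) the shares were 18.7%, 18.3%, 20.1%, 20.3% and 20.4%. The groups did not overlap, and the medians of 21.9% and 20.1% differed by more than the SDs of 0.464 and 0.984 (exact p = 0.00433, adjusted p = 0.0433). In the other CDR3s the medians were 21.4% and 21.2% (exact p = 0.329). Expanded CDR3s joined to Ighj4 had a median of 24.9% after control SMO and 19.96% after LFPRLR SMO. Those joined to Ighj2 had 25.6% and 22.7%, those joined to Ighj3 had 17.2% in both groups, and those joined to Ighj1 went the other way, with 16.5% and 17.9%. The ranges of the groups overlapped in each J segment, and these shares per J segment were not tested. Averaged pairs gave a difference of -2.03 points (exact p = 0.0286, adjusted p = 0.286). Weighted by reads it was -2.12 points (exact test, adjusted p = 0.507).

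**Figure D4:**
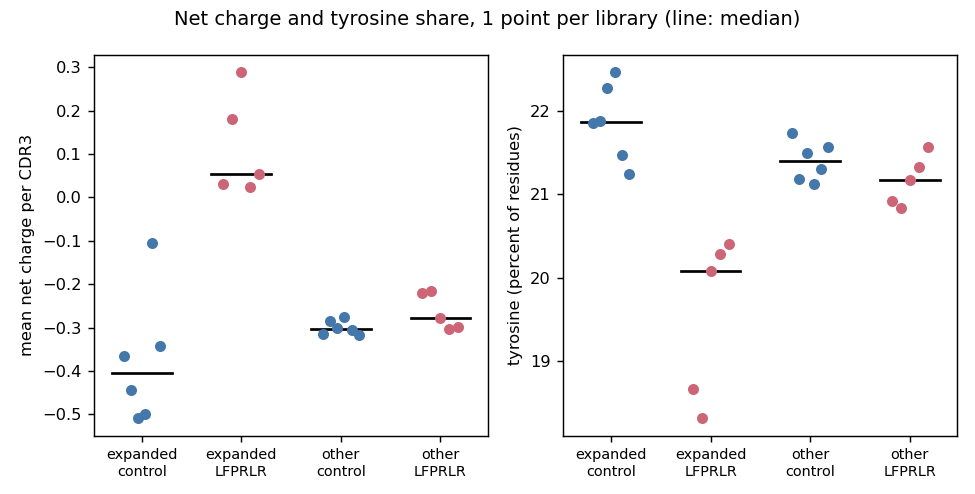
Mean net charge per CDR3 (left) and tyrosine as a percent of residues (right) for expanded and other CDR3s, 1 point per library with the group median as a line. Expanded CDR3s lay between -0.51 and -0.10 charges after control SMO and between 0.02 and 0.29 after LFPRLR SMO.

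The remaining measures were not past the threshold between the groups. Mean length was 9.84 to 11.5 residues after control SMO and 10.2 to 10.6 after LFPRLR SMO (exact p = 0.662, adjusted p = 0.779). CDR3s of at most 6 residues had median shares of 7.14% and 13.1% (exact p = 0.0173, adjusted p = 0.115), and the ranges of 0% to 11.4% and 9.23% to 15.8% overlapped. Ighj3 was used by medians of 25.9% and 32.8% (exact p = 0.126, adjusted p = 0.502). The other 15 measures, among them the other J segments, the D motifs of the list (without YDGS), cysteine and hydropathy, had adjusted p from 0.455 upwards.

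Of the 574 distinct expanded CDR3s, 424 were expanded in a single library, 139 in several libraries of the same group and 11 in libraries of both groups. Library pairs accounted for much of the second class. The 3 sharing pairs had 126 shared entries, 125 of them with the same commonest nucleotide sequence, and 98 distinct CDR3s were expanded in only the 2 libraries of a pair. The other 22 pairs of libraries within a group shared a median of 2 (1 to 15), and the 30 pairs between groups shared a median of 2 (0 to 4). Where an expanded CDR3 was shared between the groups, 47 of 64 shared entries had the same commonest nucleotide sequence. Of these 47, 27 also had the same VH end, against 199 of 210 within a group. Of the 210, 125 came from the 3 sharing pairs, and VH ends are not given without these pairs. The entries shared between the groups are repeats of the 11 CDR3s, counted once per pair of libraries.

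The 11 CDR3s expanded in both groups had 5 to 11 residues, and 7 of them had at most 8. The one that most libraries shared encodes 7 residues joined to Ighj3 with a charge of 1. It was expanded in 10 of 11 libraries at 0.17% to 0.742% of the reads, and LFPRLR SMO replicate 8 had 117 reads of it. Its commonest version was the same in 8 of these 10 libraries and another in control SMO replicate 9 and LFPRLR SMO replicate 5. Each of the 10 libraries held 11 to 17 nucleotide versions. The 5 commonest over all libraries are shown with the bases that differ from the first in capitals, and held 55.7%, 11.6%, 10.04%, 6.51% and 3.51% of its reads.
Version 1: gcaagaggggggtttgcttac
Version 2: gcaagGggggggtttgcttac
Version 3: gcaagaggAgggtttgcttac
Version 4: gcaagagggggTtttgcttac
Version 5: gcaagagggggAtttgcttac
Versions 1, 2 and 4 had at least 5 reads in 11 libraries, version 3 in 10 and version 5 in 8.

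A longer CDR3 expanded in both groups had 11 residues, a charge of -2 and the run YDGS, whose codons are in capitals. Its commonest nucleotide sequence was the same in all 6 libraries where it was expanded.
Control SMO replicates 5 and 7 and LFPRLR SMO replicates 4, 5, 7 and 8: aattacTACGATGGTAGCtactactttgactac
It held 0.38% and 0.223% of the reads in the control SMO libraries and 0.14%, 0.441%, 0.129% and 0.206% in the LFPRLR SMO libraries. Only 1 or 2 of its versions in a library had at least 5 reads. A CDR3 of 6 residues joined to Ighj3 was expanded in 3 control SMO and 4 LFPRLR SMO libraries, at 0.124% to 0.69% of the reads. The other 8 CDR3s of both groups were expanded in 2 to 5 libraries each and held between 0.1% and 0.44%.

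Expanded CDR3s were found in another library, at any read count, more often than the other CDR3s. The share was 100% in 8 libraries, 99.2% in LFPRLR SMO replicate 7, 69.7% in LFPRLR SMO replicate 8 and 60% in control SMO replicate 3. Of the other CDR3s, summed over libraries, 38.1% were found in another library. Expanded CDR3s exceeded the others of their library by 52.7 percentage points (SD 10.3), in 11 of 11 libraries. This is given without a test, since expanded CDR3s have more reads by the way they were chosen and a CDR3 with more reads is found more easily, while 45.4% to 63.4% of the others were read once. Against only those others with at least 2 reads the difference was 37.9 points, and with only finds of at least 0.01% of the reads counted it was 64.3 points.

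Among libraries of no sharing pair these finds differed by library set. Within set 1, LFPRLR SMO replicates 3 and 7 and control SMO replicate 9 found 45.9% to 100% of each other's expanded CDR3s. Within set 2, control SMO replicate 3 and LFPRLR SMO replicate 8 found 13.3% and 13.8%, and between the sets the median was 15.6% (10% to 41.0%). The expanded CDR3s of control SMO replicate 3 were found in no larger share in its own set (13.3% to 20%) than in the other (10% to 26.7%). Those of LFPRLR SMO replicate 8 were found in 36.7% to 38.5% in the other libraries of its set apart from control SMO replicate 3, and in 11.9% to 16.5% in set 1. Control SMO replicates 5 and 8 and LFPRLR SMO replicate 5, of set 2, have their partners in set 1, and their expanded CDR3s were found in 40.3% to 100% in set 1 and in 13.2% to 96.2% in set 2. The commonest CDR3 of control SMO replicate 9 had 3930 reads there, 528, 7, 14, 16 and 12 reads in control SMO replicates 4 and 7 and LFPRLR SMO replicates 3, 4 and 7, which make up the rest of set 1, and 0 reads in the libraries of set 2. The commonest CDR3 of LFPRLR SMO replicate 8, of set 2, had 5273 reads there, 18, 5 and 5 reads in control SMO replicates 5 and 8 and LFPRLR SMO replicate 5, and 0 in control SMO replicate 3 and in set 1. Within a set both groups held these traces. How the same CDR3s came to be in several libraries was not tested.

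Expanded CDR3s found in at least 1 library of the other group made up 26.7%, 95.2%, 83.0%, 95.5%, 88.1% and 91.1% in control SMO replicates 3, 4, 5, 7, 8 and 9, and 98.5%, 100%, 100%, 95.1% and 56.0% in LFPRLR SMO replicates 3, 4, 5, 7 and 8. The ranges overlapped and the medians were 89.6% and 98.5% (exact p = 0.167). Control SMO replicate 3 and LFPRLR SMO replicate 8, the libraries of set 2 that belonged to no sharing pair, were lowest in their groups. Without LFPRLR SMO replicate 8 the difference was 10.4 points with exact p = 0.0381. Expanded CDR3s of LFPRLR SMO libraries were searched in 6 control SMO libraries, with a mean of 178924 reads. Those of control SMO libraries were searched in 5 LFPRLR SMO libraries, with a mean of 156707 reads, and in fewer without replicate 8. The search thus favoured finds for the LFPRLR SMO group, and these p-values do not allow for it.

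**Figure D5:**
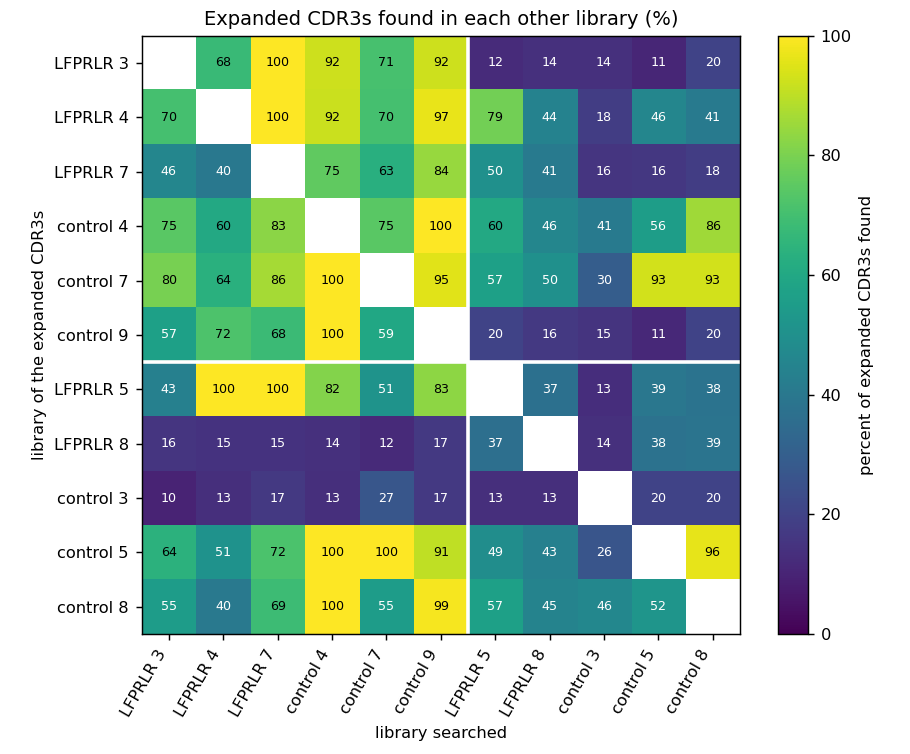
Percent of the expanded CDR3s of a library (rows) that were found at any read count in each other library (columns), with libraries ordered by library set and the sets parted by white lines. Within the first set 40.2% to 100% were found, and rows of control SMO replicate 3 and LFPRLR SMO replicate 8 are dark in most columns.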

How the data were processed

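For each library the authors deposited a table of translated sequences and a table of nucleotide sequences, each with whole-number read counts that are not normalized. Merging and filtering of reads before deposit were not given in the sources used here, and no molecular identifiers are described, so reads are not independent molecules and intervals cover counting error only. With Python 3.11.15, NumPy 2.4.6, pandas 2.3.3 and SciPy 1.17.1, counts of translations without a stop were summed per CDR3, from the cysteine of a [YF][YF]C run ending at residue 16 to 30 to the tryptophan of the last WG[QAT]GT. J was named from the framework residues after that tryptophan, and D from residue motifs. Nucleotide versions came from the nucleotide tables, and a version counted from 5 reads. The deposited tables of LFPRLR SMO replicate 5 differ in their read totals, with 171560 in the translation table and 167962 in the nucleotide table, and those of the other libraries analysed are equal.

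CDR3s described singly were the commonest of each library, the one that most libraries shared and those expanded in both groups. The commonest CDR3 of control SMO replicates 4 and 8 is not reported here. The members, measures and lists were chosen with earlier results of these data known. Expanded and other CDR3s were compared by two-sided exact sign-flip tests of library means, and groups by two-sided exact Mann–Whitney *U* tests, with Benjamini-Hochberg adjustment over 20 measures each. The location of CDR3s and the tests were tested on simulated data. Replicates are labelled as separate mice. Alternatives covered the threshold (0.05% and 0.5%), the reads in the denominator, the choice of other CDR3s, weighting by reads, medians, the J rule, averaged pairs, each library left out, a replicate block, the library sets, a test of means and thinning to 115569 reads. Counting each CDR3 once, averaging pairs in the test of expanded minus other CDR3s by group, membership by 1 nucleotide sequence and the rules for a find of at least 0.01% and in the other set were added after the data were seen. LFPRLR SMO replicate 6 was left out for depth.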

Additional observations from a re-analysis of the deposited data

Results flagged for a closer look

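Among 50 sets of values of a group, 7 had a library far from the others. Chance gives about 1 in 20 only for values that do not pile up at a bound. In some of the flagged sets the other libraries of the group were all at 0% or all at 100%, so the 7 do not measure an excess. In LFPRLR SMO replicate 5 expanded CDR3s held 43.8% of the reads. The share of expanded CDR3s found in another library was 60% in control SMO replicate 3 and 69.7% in LFPRLR SMO replicate 8, and the share found in the other group was 26.7% and 56.0% in these libraries, which stood apart from the rest of their groups each time. DST4 motifs were found in 6.33% of the expanded CDR3s of control SMO replicate 9, and a motif of the hydrophobic reading frame in 0.917% of those of LFPRLR SMO replicate 8, the single entry with one.

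The difference between expanded and other CDR3s was itself unequal in the groups for a pair of measures. For net charge the median difference was 0.46 charges higher in LFPRLR SMO than in control SMO libraries, and for the tyrosine share it was -1.602 points (exact Mann–Whitney *U* tests, adjusted p = 0.0433 each). With the sharing pairs averaged the differences were 0.38 charges and -1.77 points, with an adjusted p of 0.190 each by the exact test.

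In LFPRLR SMO replicate 6, which entered no comparison, 208 of 567 reads with a CDR3 lay in CDR3s that were expanded in other libraries, which is 36.7% (95% Wilson interval 32.8% to 40.7%). Of these reads, 107 lay in CDR3s expanded only in LFPRLR SMO libraries, 93 in those expanded only in control SMO libraries and 8 in those of both. Distinct expanded CDR3s numbered 356 in LFPRLR SMO and 229 in control SMO libraries. A matching share for the analysed libraries is not given, so the 36.7% has no comparison.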

How the results depend on the processing

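Of 20 measures, 8 differed between expanded and other CDR3s, against 13 with a threshold of 0.05%, 4 at 0.5%, 3 weighted by reads, 4 with pairs averaged and 4 with each CDR3 counted once, and 7 to 9 without single libraries. The length difference was -0.20 residues at 0.5%, 0.00173 weighted by reads and -0.73 as a difference of medians (exact test, adjusted p = 1), and the share of at most 6 residues was -0.818 points weighted by reads. Net charge differed by 0.15 at 0.05% (exact test, adjusted p = 0.0361) and by -0.23 as a difference of medians.

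Between groups 2 measures passed, and 0 passed at 0.5%, weighted by reads, with pairs averaged, with labels permuted within library sets, with each CDR3 counted once, and without any single library. The group difference in net charge was 0.97 at 0.5% (exact p = 0.00866), 0.87 weighted by reads, 0.25 for medians, 0.40 with pairs averaged, 0.46 within library sets (p = 0.01) and 0.48 with each CDR3 counted once, and 0.42 to 0.52 without single libraries (adjusted p = 0.0529 to 0.0952). These are exact tests, whose smallest p without a control SMO library is 0.00794. The group difference in length was 0.42 at 0.5%, 0.55 weighted by reads and 0.13 with each CDR3 counted once. Found in the other group differed by 2.73 to 16.5 points without single libraries (10.4 and exact p = 0.0381 without LFPRLR SMO replicate 8), and by -41.5 points when only libraries of the other set were searched. The groups were searched in unequal numbers of libraries, which these values do not allow for.

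Same-numbered mice are different animals, and the deviations of same-numbered libraries correlated at -0.26 to 0.51 over the measures, above 0.1 in 4 of 5 pairs, which leaves a pairing undecided. With a replicate block over the 5 same-numbered pairs, 0 measures passed, net charge differed by 0.52 (exact sign-flip p = 0.0625, the smallest possible), and found in the other group by 4.76 points. The number and reads of expanded CDR3s moved by less than their SD under the 3 alternatives that bear on them. Precision is limited by 30 to 122 expanded CDR3s per library.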
